A study of Arabidopsis thaliana with 9 samples.

Results

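The ammonium transporter family of Arabidopsis thaliana (accession Col-0) was described in roots as 5 genes of the 37547 measured: AMT1.1 (AT4G13510), AMT1.2 (AT1G64780), AMT1.3 (AT3G24300), AMT1.5 (AT3G24290) and AMT2 (AT2G38290). The genes were chosen by name, as transporters of a cation that competes with potassium. Their values were not used for the choice, but earlier results of these data were known when it was made. Root RNA-seq libraries came from 3 groups with 3 libraries each, all of wild-type Col-0 plants with no transgene. Control roots grew with 0.5 mM KCl. Low potassium roots grew with 0.025 mM KCl. Cesium roots grew with 0.5 mM KCl to which CsCl was added, given in the labels as 0.3 mL with no stock concentration, so its final concentration is unknown. Per the labels, all plants shared a medium with 2 mM calcium nitrate as the main nitrogen source, ammonium only as a molybdate salt listed at 0.075 mM, 1% sucrose, 22°C and 16 h of light. Sources used here do not state plant age, length of exposure or how many plants made a library. The titles number the libraries as biological replicates, and separate cultures are not named.

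Ammonium transporters of the AMT/MEP/Rh family are membrane proteins that work as trimers and bring ammonium from the soil solution into root cells. In Arabidopsis roots AMT1.1, AMT1.3 and AMT1.5 are known from rhizodermal cells, root hairs included, AMT1.2 from inner cell layers, and AMT2, from a separate branch of the family, for moving ammonium inwards and towards the shoot. AMT1 proteins that carry a regulatory threonine in the cytosolic tail are closed by its phosphorylation. The kinase CIPK23, which also activates potassium uptake through AKT1 and HAK5, is one of the enzymes known to act on some of them. Several AMT1 genes are known to rise when nitrogen runs short. Cesium is a chemical relative of potassium that enters roots through some of the same proteins.

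The coding stretch round the regulatory threonine is shown because it is the site that links the family to CIPK23. The stretches were read from the RefSeq TAIR10.1 genome with its own annotation, 5′ to 3′ on the coding strand, with the codon of the site in capitals.
AMT1.1: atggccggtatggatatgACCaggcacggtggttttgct
AMT1.2: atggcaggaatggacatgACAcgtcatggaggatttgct
AMT1.3: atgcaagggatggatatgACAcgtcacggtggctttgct
AMT1.5: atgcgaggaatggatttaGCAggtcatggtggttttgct
The capitals are a threonine codon for residue 460 of AMT1.1, 472 of AMT1.2 and 464 of AMT1.3, and an alanine codon for residue 463 of AMT1.5. In AMT2 a search of the encoded protein for the same run of residues found no match. The stretches lie on the plus strand at chr4:7859579-7859617 for AMT1.1, and on the minus strand at chr1:24061132-24061170 for AMT1.2, chr3:8805945-8805983 for AMT1.3 and chr3:8801484-8801522 for AMT1.5. Their encoded proteins have 501 residues in AMT1.1, 514 in AMT1.2, 498 in AMT1.3 and 496 in AMT1.5, all from genes of 1 exon. AMT2 has 5 exons on chromosome 2, from 16039430 to 16042521 on the minus strand, and encodes 475 residues.

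AMT1.3 and AMT1.5 are tandem neighbours on chromosome 3, with 2628 bases and 0 annotated genes between them. Their coding sequences were 87.5% identical, against 70.0% to 77.3% for the other pairs of AMT1 members and 56.5% to 57.7% for AMT2 against each AMT1 member. The stretch in which the tandem pair is most alike is shown because reads from it may match both genes, with the bases that differ in capitals.
AMT1.3: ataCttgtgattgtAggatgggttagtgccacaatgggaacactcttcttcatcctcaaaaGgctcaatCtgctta
AMT1.5: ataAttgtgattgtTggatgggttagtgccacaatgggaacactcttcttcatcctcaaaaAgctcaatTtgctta
These stretches lie at chr3:8806004-8806079 in AMT1.3 and chr3:8801543-8801618 in AMT1.5, both on the minus strand, and the longest run without a difference is 46 bases. Sources used here do not say how the authors' counting treated reads that match both genes, so the low values of AMT1.5 are uncertain. AMT1.1 spans chr4:7858183-7860288 in TAIR10.1 and shares 1709 bases with AT4G13505, a long non-coding RNA gene on the opposite strand, and the deposited files give both genes the region from 7858000 to 7860288. The libraries were strand-specific per the labels, but whether the FPKM used the strand is not stated, so reads of the pair may not have been told apart. AT4G13505 itself was listed at 1.22 to 2.59 FPKM in the 9 libraries. No other annotated gene overlaps a member. Among the genes named below, the files also give GDH1, GDH3, GLT1, ASN1, TIP2.1 and AKT1 a region shared with other genes. How reads in such regions were divided is not stated.

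FPKM count the fragments of a gene per unit of its length and per unit of all mapped fragments in that library. Their sum over all genes was between 715298 and 845355, and 19172 to 19481 genes had at least 1 FPKM. Total read numbers were not used here, and the depth relative to the control library of replicate 1, read from the steps of low FPKM values, was 97.8% to 101%. This depth was searched within a limited range only, and the best match held 15.1% to 18.5% of the genes low in both libraries. On the third principal component cesium replicate 3 was at 37.6, far from cesium replicates 1 and 2 at −27.3 and −19.4, and that component held 12.2% of the variance. Root tissue markers were present in every library, with 10 of 10 root hair and epidermis markers, 10 of 10 endodermis markers and 7 of 7 stele markers at 1 FPKM or more. Green tissue markers were present too, at 7 to 9 of 10.

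In control roots AMT1.1 was the highest member with 129, 150 and 172 FPKM in replicates 1, 2 and 3. Low potassium roots gave 150, 126 and 101 FPKM, and cesium roots gave 118, 102 and 68.7 FPKM. The cesium libraries all lay under the control libraries, while low potassium replicate 1 lay inside the control range. AMT1.2 had 79.4, 86.9 and 135 FPKM in control, 96.1, 67.5 and 69.8 FPKM in low potassium and 79.0, 79.7 and 64.8 FPKM in cesium roots. Its groups overlapped in all 3 comparisons, and control replicate 3 was the highest of its 9 libraries. AMT1.3 had 70.4, 76.0 and 89.4 FPKM in control, 64.5, 55.5 and 58.2 FPKM in low potassium and 63.9, 60.8 and 27.2 FPKM in cesium roots. Every treated library was under every control library of this gene, and cesium replicate 3 was the lowest by a wide gap. AMT2 had 8.27, 9.98 and 9.79 FPKM in control, 8.21, 7.73 and 8.57 FPKM in low potassium and 9.52, 9.10 and 10.6 FPKM in cesium roots. Its cesium libraries were above its low potassium libraries, and both groups overlapped the control. AMT1.5 was under 1 FPKM in all libraries, with 0.538, 0.500 and 0.823 FPKM in control, 0.0342, 0.0346 and 0.0331 FPKM in low potassium and 0.168, 0.822 and 0.0681 FPKM in cesium roots. The remaining family gene AMT1.4, known from pollen and no member here, was listed at 0 to 0.229 FPKM.

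**Figure D1:**
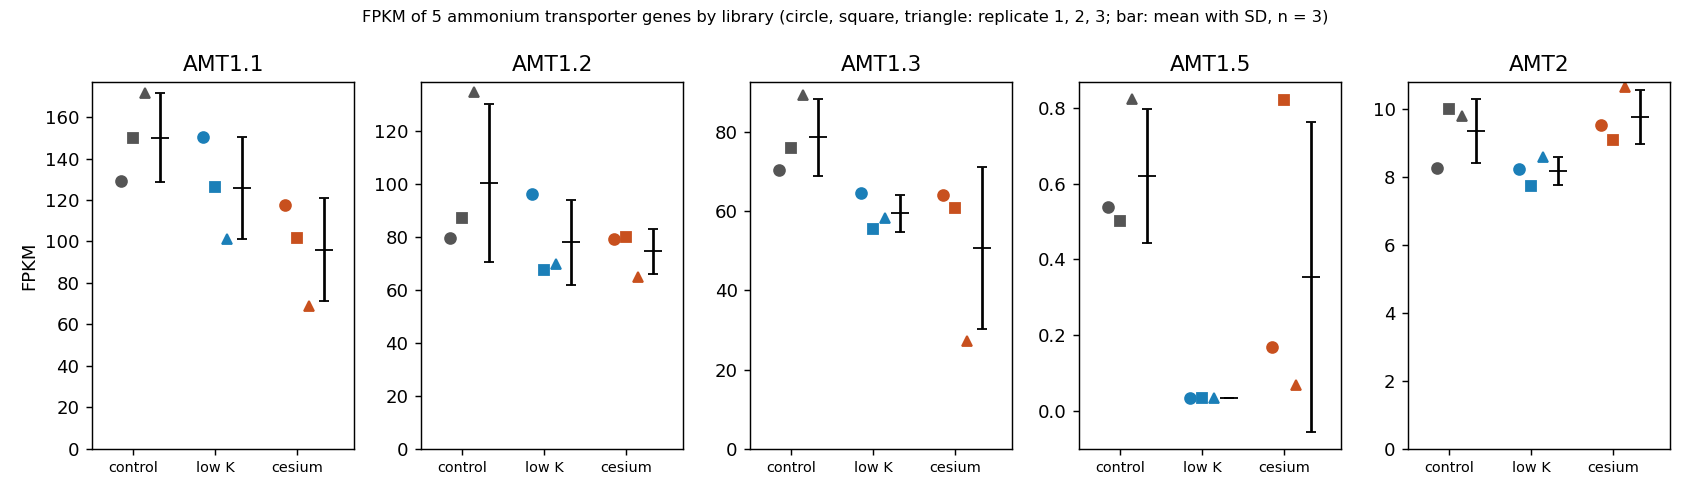
FPKM of the 5 ammonium transporter genes in each of the 9 libraries, by group, with circle, square and triangle for replicates 1, 2 and 3 and a bar for the mean with its SD (n = 3). AMT1.1 and AMT1.3 lay lower in all cesium than in all control libraries, AMT2 stayed between 7.73 and 10.6 FPKM, and AMT1.5 was at 0.0331 to 0.0346 FPKM in low potassium.

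By level the order was AMT1.1, AMT1.2, AMT1.3, AMT2 and AMT1.5 in all 3 groups. AMT1.1 was above AMT1.2 within each of the 9 libraries, by a ratio of FPKM that averaged 1.54 ± 0.24 in control, 1.63 ± 0.22 in low potassium and 1.27 ± 0.21 in cesium roots (SD, n = 3). The FPKM ranges of these neighbours overlapped in the control and the cesium group and not in low potassium. AMT1.2 was above AMT1.3 in each library too, and the ranges of this pair overlapped in the control group alone. AMT2 was far under these genes, with AMT1.1 over AMT2 at 16.0 ± 1.3 in control, 15.5 ± 3.3 in low potassium and 10.0 ± 3.1 in cesium roots (SD, n = 3). That ratio was lower in every cesium library, at 6.47 to 12.4, than in every control library, at 15 to 17.5. Between these groups 41.1% of all single tested genes did not overlap, and no such share was counted for ratios. Ranked by mean FPKM over the 9 libraries among 37542 genes, AMT1.1 was at place 1051, AMT1.2 at 1636, AMT1.3 at 2249, AMT2 at 11972 and AMT1.5 at 21236.

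The summed FPKM of the 5 members was 339 ± 60.8 in control, 271 ± 42.5 in low potassium and 231 ± 52.6 in cesium roots (SD, n = 3). Control libraries held 288, 323 and 406 FPKM, and cesium libraries 270, 252 and 171 FPKM, so these groups did not overlap. Of all single tested genes, 41.1% did not overlap between these groups. The sum is made up mostly of AMT1.1, AMT1.2 and AMT1.3 and is no result separate from theirs. Low potassium libraries held 319, 257 and 238 FPKM and overlapped both. AMT1.1 took 44.5% ± 2.1 of it in control, 46.2% ± 3.4 in low potassium and 41.3% ± 1.9 in cesium roots (SD, n = 3). AMT1.2 took 29.2% ± 3.4, 28.6% ± 2.0 and 32.9% ± 4.4, and AMT1.3 took 23.3% ± 1.2, 22.1% ± 2.2 and 21.2% ± 4.7, in the same order of groups. AMT2 took 2.79% ± 0.35 in control, 3.06% ± 0.52 in low potassium and 4.44% ± 1.5 in cesium roots. These shares were not tested.

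The first comparison asked how the family differed between cesium and control roots. AMT1.1, a main high-affinity ammonium uptake protein, was the one member that passed, and fell by 0.67 ± 0.21 on the log2(FPKM + 1) scale (SE; 95% interval −1.12 to −0.21; limma, adjusted p = 0.0422; 3 libraries a group). AMT1.3, its partner in uptake at the root surface, had a log2 change of −0.71 ± 0.27 and did not pass (95% interval −1.31 to −0.11; adjusted p = 0.0836). AMT1.2, the inner-layer transporter, had a log2 change of −0.39 ± 0.20 (95% interval −0.84 to 0.06; adjusted p = 0.187). AMT2 had one of 0.057 ± 0.096 (95% interval −0.16 to 0.27; adjusted p = 0.702).

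Of the 4 members that reached a mean of 1 FPKM and were tested, 1 passed, in the lower direction, beside a background of 23.5% of the 19536 tested genes called in this comparison and 12.7% called lower. AMT1.1 and AMT1.3 did not overlap between cesium and control, where 41.1% of all tested genes did not and 20.6% lay wholly lower and 20.5% wholly higher. The median log2 change of the 4 tested members was −0.53, or −0.31 without cesium replicate 3, against 0.020 for all tested genes. In bulk root RNA, fewer cells of a type and less RNA per cell cannot be told apart. Root hair and epidermis markers fell beside the members, with 6 of 10 lower and a summed level of 144 to 211 FPKM in cesium against 292 to 468 FPKM in control libraries. Endodermis markers fell in 8 of 10, at 399 to 497 against 853 to 1017 FPKM, and green tissue markers rose in 5 of 8 tested, at 968 to 1758 against 419 to 566 FPKM. None of the tissue markers that define root hairs, endodermis or stele was at 0, and the part of these shifts in the members' result was not tested.

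The call of AMT1.1 was lost in 8 of 19 alternatives. They include those without control replicate 1, 2 or 3, with adjusted p of 0.0514, 0.105 and 0.138. It was also lost without cesium replicate 2 or 3, at 0.0671 and 0.0903, and without low potassium replicate 2, at 0.0637. Without cesium replicate 3 its log2 change was −0.44. The change of AMT1.3 was −0.32 without cesium replicate 3, the library with 27.2 FPKM, and −0.92 without cesium replicate 1, where it passed at an adjusted p of 0.0457. All 19 alternative settings kept the lower sign for AMT1.1, AMT1.2 and AMT1.3 in cesium. Much of this was fixed in advance. Changing the filter, trend, block or low potassium libraries leaves the size of this difference unchanged. For AMT1.1 and AMT1.3, whose groups did not overlap, leaving out a library cannot turn the sign.

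**Figure D2:**
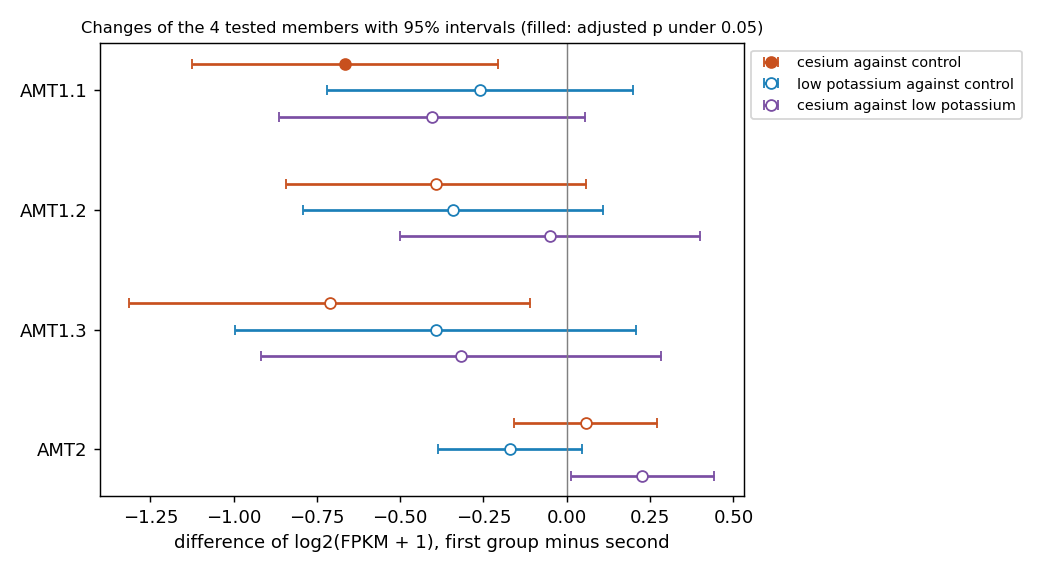
Difference of log2(FPKM + 1) of the 4 tested members in each of the 3 comparisons, as points with 95% intervals, first group minus second, filled where the adjusted p was under 0.05. The single filled point is AMT1.1 in cesium against control at −0.67.

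**Figure D3:**
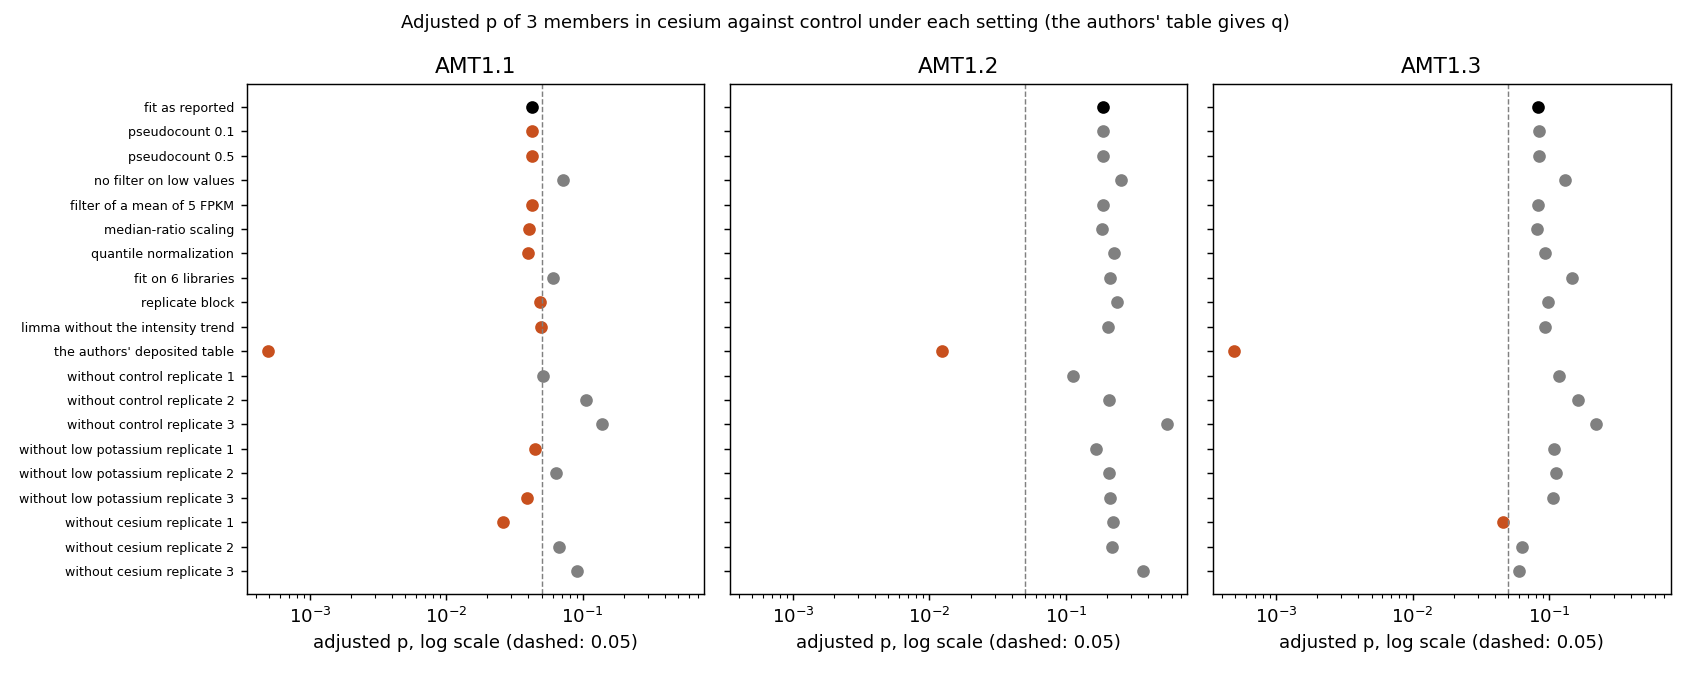
Adjusted p (log scale) of AMT1.1, AMT1.2 and AMT1.3 in cesium against control as reported and under each of the 19 alternative settings, with a dashed line at 0.05. AMT1.1 passed in 11 of 19, AMT1.3 in 2 and AMT1.2 in 1.

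In the authors' deposited table, whose q-values come from the authors' own test, 3 members were lower in cesium. That table gives AMT1.1 a log2 fold change of −0.65 with q = 0.000491, AMT1.3 −0.63 with q = 0.000491 and AMT1.2 −0.43 with q = 0.0125. The authors' deposited table gives AMT2 0.061 with q = 0.865 and AMT1.5 −0.82 with q = 0.186. Its background was 22.5% of its 20923 tested genes at q under 0.05 and 12.3% lower. So AMT1.1 passed both tests, and AMT1.2 and AMT1.3 passed the authors' test alone.

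The second comparison asked how the family differed between low potassium and control roots. No member passed: 0 of 4 tested by limma, and 0 of the 4 at an unadjusted p under 0.05, beside a background of 37.6% of tested genes called, 18.8% in each direction. AMT1.1 had a log2 change of −0.26 ± 0.21 (95% interval −0.72 to 0.20; adjusted p = 0.344). AMT1.2 had −0.34 ± 0.20 (−0.79 to 0.11; adjusted p = 0.208). AMT1.3 had −0.39 ± 0.27 (−0.995 to 0.21; adjusted p = 0.274), and AMT2 had −0.17 ± 0.096 (−0.39 to 0.04; adjusted p = 0.190). All 4 signs were lower, and the median was −0.30 against 0.0019 for all tested genes. AMT1.3 alone did not overlap, in a comparison in which 55.9% of tested genes did not overlap, 27.8% wholly lower and 28.1% wholly higher. It passed at an adjusted p of 0.0109 without cesium replicate 3 and at 0.0182 in a fit on the 6 libraries of both groups. Its log2 change there was the same −0.39, and its SE in the fit of 9 libraries includes the spread of the cesium group.

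The authors' deposited table has 2 members lower in low potassium, AMT1.3 with a log2 fold change of −0.40 and q = 0.0152 and AMT1.2 with −0.36 and q = 0.0363, beside a background of 30.1% of its 20820 tested genes and 15.9% lower. It gives AMT1.1 −0.25 with q = 0.193 and AMT2 −0.19 with q = 0.435, so neither passed there. Root hair and epidermis markers fell in 9 of 10 and had a summed level of 93.9 to 271 FPKM in low potassium libraries, under the 292 to 468 FPKM of the control. Endodermis markers fell in 6 of 10, at 474 to 551 FPKM. Their part in the members' values was not tested.

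The third comparison set cesium directly against low potassium, with the control libraries used for the estimate of spread alone. Again 0 of 4 tested members passed by limma, where 34.2% of tested genes were called, 16.7% higher and 17.4% lower in cesium, and 1 of the 4 had an unadjusted p under 0.05. That member was AMT2, 0.23 ± 0.096 higher in cesium (95% interval 0.01 to 0.44; adjusted p = 0.0956), with no overlap between groups, as for 47.2% of tested genes. Beside it green tissue markers rose in 8 of 8, stele markers in 2 of 7, endodermis markers fell in 3 of 10 and root hair markers passed in 0 of 10 by limma (1 without cesium replicate 3), and their part in the difference was not tested. AMT1.1 had a log2 difference of −0.40 ± 0.21 (−0.86 to 0.06; adjusted p = 0.156). AMT1.3 had −0.32 ± 0.27 (−0.92 to 0.28; adjusted p = 0.388). AMT1.2 had −0.050 ± 0.20 (−0.50 to 0.40; adjusted p = 0.869). The intervals of AMT1.1 and AMT1.3 reach to differences larger than their own changes against control, so these libraries do not show that both treatments act alike on them. The first 2 comparisons share the control libraries, and their values for the members are given side by side for that reason only.

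AMT1.5, the close copy of AMT1.3, did not reach a mean of 1 FPKM and was not tested with the other members. Its lowest FPKM value, scaled to relative depth, was taken as 1 read, which is an assumption. In units fitted from that start, its values were within 0.097 of a whole number in all libraries. They came to about 16, 15 and 24 reads in control, 1, 1 and 1 in low potassium and 5, 24 and 2 in cesium roots. The 1 read of low potassium was thus set and not measured. For AMT1.4 the same reading left control replicate 3 at 0.409 from a whole number. All low potassium libraries were thus under all control and all cesium libraries, and cesium replicate 2 was as high as the highest control library. Control over low potassium was 55 against 3 reads, a ratio of 18.3 with an exact 95% interval of 5.94 to 91.4. Such intervals cover counting error only and rest on the assumed unit of 1 read. Cesium over low potassium was 31 against 3 reads, a ratio of 10.4 (3.24 to 53.1). Cesium replicate 2 held 24 of these 31 reads, and without it the ratio was 3.52 with an interval of 0.803 to 21.1, which includes 1.

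By exact permutation over libraries, two-sided, the difference of AMT1.5 between low potassium and control had p = 0.1, and so had that between cesium and low potassium, where 0.1 is the smallest p that 3 against 3 libraries allow. Cesium against control had an exact permutation p = 0.3. With no filter on low values, 26530 genes entered the limma fit, and AMT1.5 then fell in low potassium by 0.64 ± 0.18 (adjusted p = 0.0307), or by 2.4 ± 0.54 with a pseudocount of 0.1 (adjusted p = 0.0113). In the same fits neither cesium against control (adjusted p = 0.310 and 0.230) nor cesium against low potassium (0.203 and 0.0961) passed. In the authors' deposited table the low potassium change was −4.19 with q = 0.154. With 3 reads assumed in the low potassium group and reads of AMT1.3 possibly assigned to it, its level there is near the limit of detection.

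The promoters of the 3 members with the highest FPKM are shown because they hold most of the family's transcript and had lower means in both treatments. Each is the 250 bases before the annotated start in RefSeq TAIR10.1, 5′ to 3′ on the gene's strand, with matches to 3 motifs in capitals, searched on both strands: the TATA box core TATAAA, the GATA factor core GATAAG and the G-box CACGTG.
AMT1.1: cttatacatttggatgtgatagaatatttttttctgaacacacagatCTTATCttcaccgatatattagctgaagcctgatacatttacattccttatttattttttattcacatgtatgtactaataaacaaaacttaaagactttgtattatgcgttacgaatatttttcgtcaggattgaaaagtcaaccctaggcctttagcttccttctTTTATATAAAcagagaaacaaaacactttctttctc
AMT1.2: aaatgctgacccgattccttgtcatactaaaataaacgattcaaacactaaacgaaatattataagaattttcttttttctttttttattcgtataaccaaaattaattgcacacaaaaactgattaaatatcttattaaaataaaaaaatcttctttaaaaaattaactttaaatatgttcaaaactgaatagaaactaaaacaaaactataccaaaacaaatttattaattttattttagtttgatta
AMT1.3: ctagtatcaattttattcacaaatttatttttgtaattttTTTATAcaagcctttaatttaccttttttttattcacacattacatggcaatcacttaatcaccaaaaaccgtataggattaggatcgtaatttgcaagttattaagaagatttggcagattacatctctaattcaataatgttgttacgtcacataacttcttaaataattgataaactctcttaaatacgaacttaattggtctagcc
They lie at chr4:7857933-7858182 on the plus strand for AMT1.1, and on the minus strand at chr1:24062805-24063054 for AMT1.2 and chr3:8807461-8807710 for AMT1.3. The AMT1.1 window overlaps the antisense gene AT4G13505, which reaches to 7858000. TATAAA matched in AMT1.1 at 32 bases before the start and, reversed and overlapping it, at 36, and in AMT1.3 reversed at 210. GATAAG matched once, reversed, in AMT1.1 at 203 bases before the start, and CACGTG matched in none of the 3. Of 27443 protein-coding promoters of this length, 47.3% held the TATA box core, 12.3% the GATA factor core and 6.49% the G-box. No motif matched in all 3 windows, and a match is a description of the letters alone.

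CIPK15, a kinase that acts on AMT1 proteins, and CBL9 rose in low potassium and fell in cesium, and CIPK23 rose in low potassium. CIPK23, which phosphorylates AMT1.1 and AMT1.2, had 61.0, 63.3 and 56.7 FPKM in control and 102, 103 and 108 FPKM in low potassium roots, and rose by 0.78 ± 0.08 (limma, adjusted p = 0.000117). In cesium it had 74.4, 74.8 and 65.8 FPKM, above all control libraries, with a change of 0.24 ± 0.08 that did not pass (adjusted p = 0.0511, and 0.0148 without cesium replicate 3). CBL9, a calcium sensor that recruits CIPK23 to the membrane, rose by 0.81 ± 0.08 in low potassium and fell by 0.30 ± 0.08 in cesium (adjusted p = 0.000139 and 0.0319), and differed between the treatments by −1.10 ± 0.08 (adjusted p = 2.96e-05). CIPK15, another kinase that inhibits AMT1 transport, rose by 0.47 ± 0.07 in low potassium and fell by 0.24 ± 0.07 in cesium (adjusted p = 0.000983 and 0.0390).

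The cesium calls of CBL9 and CIPK15 changed with the libraries used. CBL9 lost its call in 9 of 19 alternatives, among them without any 1 control library (adjusted p of 0.0887, 0.0664 and 0.0852) and without cesium replicate 1 or 3 (0.0833 and 0.0638). CIPK15 lost it in 13 of 19, including every alternative that left out a control or a cesium library (0.0542 to 0.124) and those without low potassium replicate 1 or 2 (0.0559 and 0.0540). Over the list of 9 kinases and ammonium tolerance genes, 1 was higher and 4 lower in cesium (2 higher and 2 lower without cesium replicate 3). In low potassium 5 were higher and 2 lower. Beside this list and those below, 10.8% of all tested genes were called higher and 12.7% lower in cesium. In low potassium the shares were 18.8% in each direction. CAP1, a receptor-like kinase of root hairs under ammonium, had 3.16 to 4.53 FPKM in control, 1.19 to 2.27 FPKM in cesium and 0.967 to 2.42 FPKM in low potassium roots. It fell by 0.91 ± 0.23 in cesium (adjusted p = 0.0182), a call lost without control replicate 2 or 3 (0.0641 and 0.0682). VTC1, an enzyme of ascorbate synthesis whose mutants are hypersensitive to ammonium, fell by 0.34 ± 0.08 in cesium (adjusted p = 0.0142, and 0.0540 without control replicate 3). SLAH3, an anion channel tied to ammonium tolerance, rose by 0.46 ± 0.10 in cesium and by 1.91 ± 0.10 in low potassium (adjusted p = 0.00908 and 3.71e-06).

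Ammonium that enters the root is bound by glutamine synthetase and glutamate synthase, and these genes did not share 1 direction. Of 13 tested genes of ammonium assimilation, of 15 listed, 3 were higher and 3 lower in cesium, and 4 were higher and 4 lower in low potassium. GLN1.1, a cytosolic glutamine synthetase of high affinity, had 681, 745 and 780 FPKM in control and 391, 385 and 320 FPKM in cesium roots, and fell by 1.01 ± 0.13 (limma, adjusted p = 0.000706). GLN1.4 fell by 0.50 ± 0.10 in cesium (adjusted p = 0.00497), while GLN1.3 had 0.02 ± 0.10 and GLN1.2 −0.13 ± 0.20, neither passing. In low potassium GLN1.2 rose by 1.16 ± 0.20 (adjusted p = 0.00203) and GLT1, the NADH glutamate synthase, by 0.51 ± 0.11 (adjusted p = 0.00728), where GLN1.1 had −0.14 ± 0.13. The glutamate dehydrogenase genes GDH1 and GDH2 rose in both treatments, by 0.65 ± 0.13 and 0.62 ± 0.13 in cesium and by 1.84 ± 0.13 and 1.50 ± 0.13 in low potassium. GDH3 went from 0.486 to 0.811 FPKM in control to 4.81 to 11.3 FPKM in cesium and rose by 2.38 ± 0.24 (adjusted p = 0.000155), but had q = 0.264 in the authors' deposited table. ASN1, an asparagine synthetase, fell by 3.32 ± 0.23 in low potassium (adjusted p = 1.46e-05).

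Other routes of ammonia and urea held 6 tested genes, of which 0 were higher and 4 lower in cesium and 2 were higher and 2 lower in low potassium. The tonoplast aquaporins TIP2.1 and TIP2.3 are known to conduct ammonia. TIP2.1 had 481 to 500 FPKM in control, 133 to 214 in cesium and 174 to 200 in low potassium roots, with changes of −1.53 ± 0.15 and −1.4 ± 0.15 (both lower, adjusted p = 0.000143 and 0.000148). TIP2.3 had 76.1 to 103 FPKM in control, 27.5 to 50.1 in cesium and 150 to 180 in low potassium roots, and fell by 1.21 ± 0.19 in cesium and rose by 0.88 ± 0.19 in low potassium (adjusted p = 0.00208 and 0.00661).

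Nitrate, the main nitrogen source of this medium, is reduced to ammonium in the root. Of 8 tested nitrate genes 0 were higher and 3 lower in cesium, and 1 was higher and 5 lower in low potassium (2 higher and 6 lower without cesium replicate 3). The high-affinity nitrate transporter NRT2.4 fell by 1.64 ± 0.16 in cesium and fell by 3.75 ± 0.16 in low potassium (adjusted p = 0.000143 and 1.99e-06). NIR1, the nitrite reductase whose product is ammonium, had 257 to 302 FPKM in control, 139 to 223 in cesium and 137 to 155 in low potassium roots, and fell by 0.60 ± 0.16 in cesium (adjusted p = 0.0243, and 0.0780 and 0.0820 without control replicate 2 or 3). Of 9 tested nitrogen status regulators 2 were higher and 2 lower in cesium, and 7 were higher and 0 lower in low potassium. BT2, a scaffold protein that represses nitrate transporter genes, rose in both, by 0.90 ± 0.13 and 1.08 ± 0.13 (adjusted p = 0.00127 and 0.000298). Potassium uptake proteins at which ammonium competes rose in 3 of 3 in low potassium, HAK5 by 4.88 ± 0.19 and AKT1 by 0.84 ± 0.11 (adjusted p = 1.99e-06 and 0.000585), and 0 of 3 passed in cesium by limma, where none had an unadjusted p under 0.05 or a q under 0.05 in the authors' deposited table and HAK5 passed at 0.0120 without cesium replicate 2. The median log2 change was −0.95 over the ammonia and urea routes and −0.56 over the nitrate genes in cesium, and −0.12 over assimilation. Without cesium replicate 3 these medians were −1.04, −0.32 and 0.036, so that of assimilation turned its sign.

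**Figure D4:**
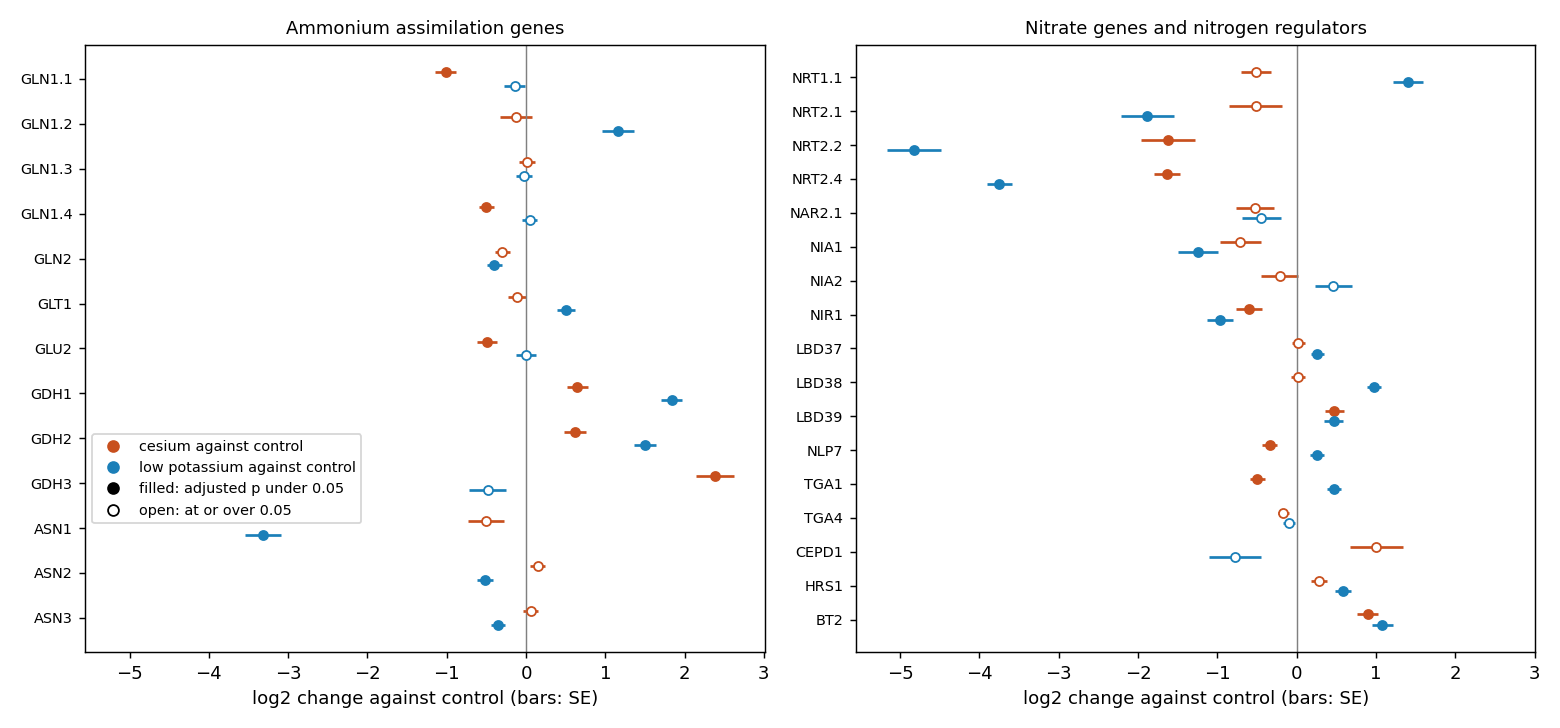
log2 change against control of the tested genes of ammonium assimilation (left) and of nitrate uptake, nitrate reduction and nitrogen status regulation (right), with SE as bars, cesium in orange and low potassium in blue, filled where the adjusted p was under 0.05. GLN1.1 stands at −1.01 in cesium and at −0.14 in low potassium, and NRT2.4 at −1.64 and −3.75.

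Between the treatments themselves the same lists were read from cesium against low potassium, where 16.7% of all tested genes were called higher and 17.4% lower. Of the 13 assimilation genes 4 were higher and 7 lower in cesium, of the 9 kinase and tolerance genes 0 were higher and 6 lower, and of the 6 ammonia and urea genes 0 were higher and 3 lower. Of the 8 nitrate genes 3 were higher and 2 lower (5 higher and 2 lower without cesium replicate 3), of the 9 regulators 1 was higher and 5 lower (3 lower without cesium replicate 3), and of the 3 potassium uptake genes 3 were lower. Stele markers passed in 2 higher and 1 lower of 7 in cesium and 0 higher and 2 lower in low potassium against control. Green tissue markers were lower in 3 of 8 in low potassium, at 272 to 330 FPKM, and in 7 of 8 without cesium replicate 3.

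Genes with the pattern most like each member were ranked by Pearson's r of log2(FPKM + 1) over the 9 libraries among the 15012 genes that averaged 5 FPKM or more, as a description in which all points share libraries and groups. AMT1.1 was closest to AT3G02880, a leucine-rich repeat protein kinase, with r = 0.99, then to EXO70B2, an exocyst protein, with 0.98 and MAG2 with 0.97. AMT1.3 was closest to SEC10, an exocyst protein, with 0.99, then to AT5G25820 and ATMRK1 with 0.97 each. AMT1.2 was closest to AT5G17010 with 0.95, GONST4 with 0.95 and ATR2 with 0.94. AMT2 was closest to EMB2813 with 0.93, AT3G61118 with 0.92 and AT5G40090 with 0.91. Within the family AMT1.1 and AMT1.3 were the closest pair at 0.91, with AMT1.3 at place 99 of the 15012 genes for AMT1.1. AMT1.1 and AMT1.2 had 0.77, AMT1.2 and AMT1.3 had 0.71, and AMT1.3 and AMT2 had −0.27. Cesium replicate 3, the lowest library for AMT1.1 and AMT1.3, was also the lowest for AT3G02880 at 23.4 FPKM and for SEC10 at 33.3 FPKM. Both genes were picked by their r over these same libraries, so this follows largely from the choice and adds no separate evidence.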

How the data were processed

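Roots of 3 groups with 3 libraries each were analysed. RNA was extracted with Trizol and made into strand-specific libraries, per the labels' protocols. The submitters' processing notes name the TAIR10 genome and, with no role, Cufflinks 2.2.1, STAR 2.5.0c and Bowtie2 2.3.4.1. The authors deposited FPKM per gene and library with lower and upper bounds, and a table of their own log2 fold changes, test scores, p-values and q-values against control. From 37547 genes, 5 with a status other than OK were dropped. Genes averaging 1 FPKM or more, 19536 in all, were tested on log2(FPKM + 1) with limma 3.58.1 (R 4.3.3), with an intensity trend, in 1 one-way fit of 9 libraries. P-values were adjusted by Benjamini-Hochberg over all tested genes of a comparison, with a threshold of 0.05, and measure the spread between these libraries, which may be technical. Fold changes on this scale understate the change of low genes. The script was tested on simulated data. Sequences came from RefSeq TAIR10.1, where 27467 of 37045 matched genes have the region the files give. The members and gene lists were chosen with earlier results of these data known. Genes named beside the members were those of a list that passed where 5 or fewer did, otherwise the 3 with the smallest adjusted p, and a set of fixed genes. Alternatives changed the pseudocount, filter, scaling, trend and block, used 6 libraries or the authors' table, or left out each library in turn. List counts without cesium replicate 3, and AMT1.5 read ratios without single libraries, were added after seeing the data.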

Additional observations from a re-analysis of the deposited data

Results flagged for a closer look

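No ammonium transporter gene passed in opposite directions in the cesium and low potassium treatments. It could not have, as 0 of the 4 tested members passed in low potassium, so this is no result about the family. Among the genes named beside the family, 6 passed in opposite directions against the same control libraries. The direct comparison of cesium with low potassium passed for each of them, which follows largely from that choice and adds no separate evidence. The share of all tested genes with such opposite calls was not counted, so the 6 are not read as a trait of these genes. Taken singly, 23.5% of all tested genes were called in cesium and 37.6% in low potassium against control. The log2 difference, cesium minus low potassium, was −1.10 for CBL9, which recruits CIPK23 to the membrane, and −0.71 for CIPK15, which inhibits AMT1 transport. Of 19 alternatives, the cesium call of CBL9 was lost in 9 and that of CIPK15 in 13. The difference was −1.60 for TIP2.2 and −2.10 for TIP2.3, aquaporins of the tonoplast. It was −0.97 for TGA1 and −0.60 for NLP7, transcription factors of the nitrate response. Of all tested genes, 41.1% did not overlap between cesium and control, 55.9% between low potassium and control and 47.2% between the treatments. TGA1 had 176 to 192 FPKM in control, 249 to 267 in low potassium and 117 to 145 in cesium roots. NLP7 had 30.8 to 35.4, 39.8 to 40.7 and 23.2 to 28.1 FPKM in the same order. The 3 groups of each did not overlap, which follows largely from choosing genes with opposite calls. The cesium call of NLP7 was lost without control replicate 2 or 3 (adjusted p = 0.0815 and 0.0847, limma). TIP2.2 had 417 to 456 FPKM in control, 596 to 736 in low potassium and 188 to 253 in cesium roots.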

How the results depend on the processing

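Over the alternatives, the number of members that passed in cesium against control was 0 with no filter on low values, 0 in a fit on 6 libraries, 3 in the authors' deposited table and 0 to 2 when single libraries were left out, against 1 as reported. In low potassium against control it was 1 with no filter (AMT1.5), 1 in a fit on 6 libraries (AMT1.3), 2 in the authors' deposited table and 0 to 1 when single libraries were left out, against 0 as reported. AMT1.1 in cesium had an adjusted p of 0.0710 with no filter and 0.0605 in the fit on 6 libraries, and 0.000491 to 0.138 over its 19 alternatives. AMT1.3 in cesium ran from 0.000491 to 0.22 and AMT1.2 from 0.0125 to 0.547. In cesium against low potassium 0 members passed under any alternative. All tested genes called in cesium against control numbered 2905 without control replicate 2, 3030 without control replicate 3, and up to 4788 when another library was left out, against 4591. The other scalings moved the median of all genes by at most 0.0181 on the log2 scale. Deviations of same-numbered libraries had correlations of −0.0594, 0.113 and −0.0649 for cesium and control, −0.12, 0.179 and −0.00786 for low potassium and control, and 0.0198, 0.0972 and 0.282 for cesium and low potassium. In no comparison were all 3 over 0.1, so the numbers were not taken as pairs. With the replicate block 1, 0 and 0 members and 4154, 6729 and 6095 genes passed in the 3 comparisons.

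Signs reversed for small differences that had not passed, given here with the range over single libraries left out. In cesium AMT2 ranged from −0.021 (without control replicate 1) to 0.10, with −0.0018 without cesium replicate 3. GLN1.2 ranged from −0.27 to 0.13, and GLN1.3 from −0.0084 to 0.036, with −0.0075 without cesium replicate 2. AKT1 ranged from −0.11 to 0.13, with 0.0053 without control replicate 2, 0.020 under quantile normalization and 0.00034 in the authors' deposited table. In low potassium GLN1.3 ranged from −0.12 to 0.054, with 0.041 under quantile normalization, and GLN1.4 from −0.023 to 0.12, with −0.0018 without control replicate 1. In cesium against low potassium AMT1.2 ranged from −0.14 to 0.11, with 0.047 without cesium replicate 3, AMT1.3 from −0.53 to 0.072, and GLN1.3 from −0.038 to 0.14, with −0.035 under quantile normalization. The cause was not tested. FPKM carry no total counts, so depth limits AMT1.5 most, at about 1 read in each low potassium library, the value assumed for its lowest level.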
